A study of Mus musculus with 9 samples.

Results

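The 32 genes described here encode the subunits of voltage-gated sodium and calcium channels in mouse. They are all the protein-coding genes of GENCODE M21 named Scn with a number and a or b, or whose name starts with Cacna1, Cacna2d or Cacnb, and all 32 were among the 44886 gene rows counted in each library. The set holds 10 sodium channel alpha genes, 4 sodium channel beta genes, 10 calcium channel alpha1 genes (4 of the Cav1, 3 of the Cav2 and 3 of the Cav3 class), 4 alpha2delta genes and 4 calcium channel beta genes. The rule uses names and no measured value, although it was set with earlier results of these data known.

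Messenger RNA was sequenced from the striatum of mouse embryos at E17.5, with each library labelled as a single embryo. Each of 3 genotypes was given by 3 embryos: Control, Islet1Cre;Ebf1fl/- (called Islet1Cre-labelled here) and Dlx5/6::Cre;Ebf1fl/- (Dlx5/6-labelled). Ebf1 encodes a transcription factor of direct-pathway striatal projection neurons, and the mutant embryos carried 1 floxed and 1 null allele of it. By the study's methods, heterozygous embryos served as controls, so they are not wild type for every allele. Islet1Cre recombines in direct-pathway projection neurons and in cholinergic interneurons, and Dlx5/6::Cre in all striatal projection neurons and in interneurons, whereas cells that do not derive from these lineages keep Ebf1 as their alleles give it. The labels give C57BL/6 as the strain background, while the methods describe the Islet1Cre line on B6D2F1/J.

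Voltage-gated sodium channels open on depolarisation and carry the rising phase of the action potential. Each is built on 1 large alpha subunit that forms the pore, to which beta subunits are added that alter gating and act as adhesion molecules. Voltage-gated calcium channels are built on an alpha1 subunit of the same ancestry. Cav1 channels carry the L-type current that couples activity to gene expression, Cav2 channels drive transmitter release, and Cav3 channels carry the low-voltage activated T-type current that shapes firing near rest. The alpha2delta and beta subunits bring Cav1 and Cav2 channels to the membrane and set their gating. Many of these genes are switched on or exchanged as young neurons become excitable.

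Libraries held 16548083 to 41507049 counts. Ebf1 itself was not lower in the mutants: its CPM values, the usual unit of counts over library size, here with TMM scaling, were 264, 470 and 322 in Control, 507, 459 and 439 in Islet1Cre-labelled and 392, 434 and 506 in Dlx5/6-labelled embryos. Counts of the whole gene can include reads from its undeleted part, and counts per exon were not examined. The Ebf1 counts therefore do not check the labels, and every direction below is that of the labels. Apart from these counts, the paper reports by immunostaining that Ebf1 protein was missing from the E17.5 striatum of both mutants. Control replicate 3 and Islet1Cre;Ebf1fl/- replicate 3 held both Xist (400.4 and 242 CPM) and counts of 4 Y-linked genes (9.79 and 81.5 CPM), although each is labelled as a single embryo. Control replicate 2 held Y-linked counts (126 CPM) and almost no Xist (0.108 CPM). The Dlx5/6-labelled libraries held Xist (358 to 491 CPM) and at most 0.027 CPM of the Y-linked genes. Sex was thus not balanced between these groups, and its part in any difference was not tested. Dlx5/6::Cre;Ebf1fl/- replicate 1 stood apart, with a summed 436 CPM of 6 markers of dividing progenitors, against 72.5 to 125 in the other 8 libraries. General markers of striatal projection neurons, 6 in all, were present, and their sum lay between 2842 and 3520 CPM in all 9 libraries. By the test described below, 0 of the 6 passed in the Islet1Cre comparison and 1 in the Dlx5/6 comparison. The sum therefore does not show that each marker was unchanged. Since this is bulk tissue, fewer cells of a type and less RNA per cell cannot be told apart.

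In both comparisons with Control the same 2 of the 30 subunit genes with enough counts for a test passed it: Scn10a was lower and Cacna1g was higher. Scn10a had enough counts through its Control libraries alone, as no mutant library held more than 5 counts of it. Its entry into the test was therefore not independent of the group where it is high. The test was edgeR's quasi-likelihood test, with p-values adjusted over the 16368 genes tested and a threshold of 0.05. In the Islet1Cre comparison 0.971% of all tested genes were called (0.470% higher and 0.501% lower), and in the Dlx5/6 comparison 2.39% were (1.05% higher and 1.34% lower). The 2 comparisons use the same Control embryos, so the recurrence of these genes is not independent. At an unadjusted p under 0.05 there were 5 members in the Islet1Cre comparison, where 7.93% of all genes were, and 9 in the Dlx5/6 comparison, where 15.5% were. The median log2 fold change of the 30 members was 0.038 in the Islet1Cre comparison and -0.062 in the Dlx5/6 comparison, beside -0.0016 and 0.011 over all genes tested. In each comparison 24 of the 30 members had a log2 fold change of less than 0.5 in size.

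**Figure D1:**
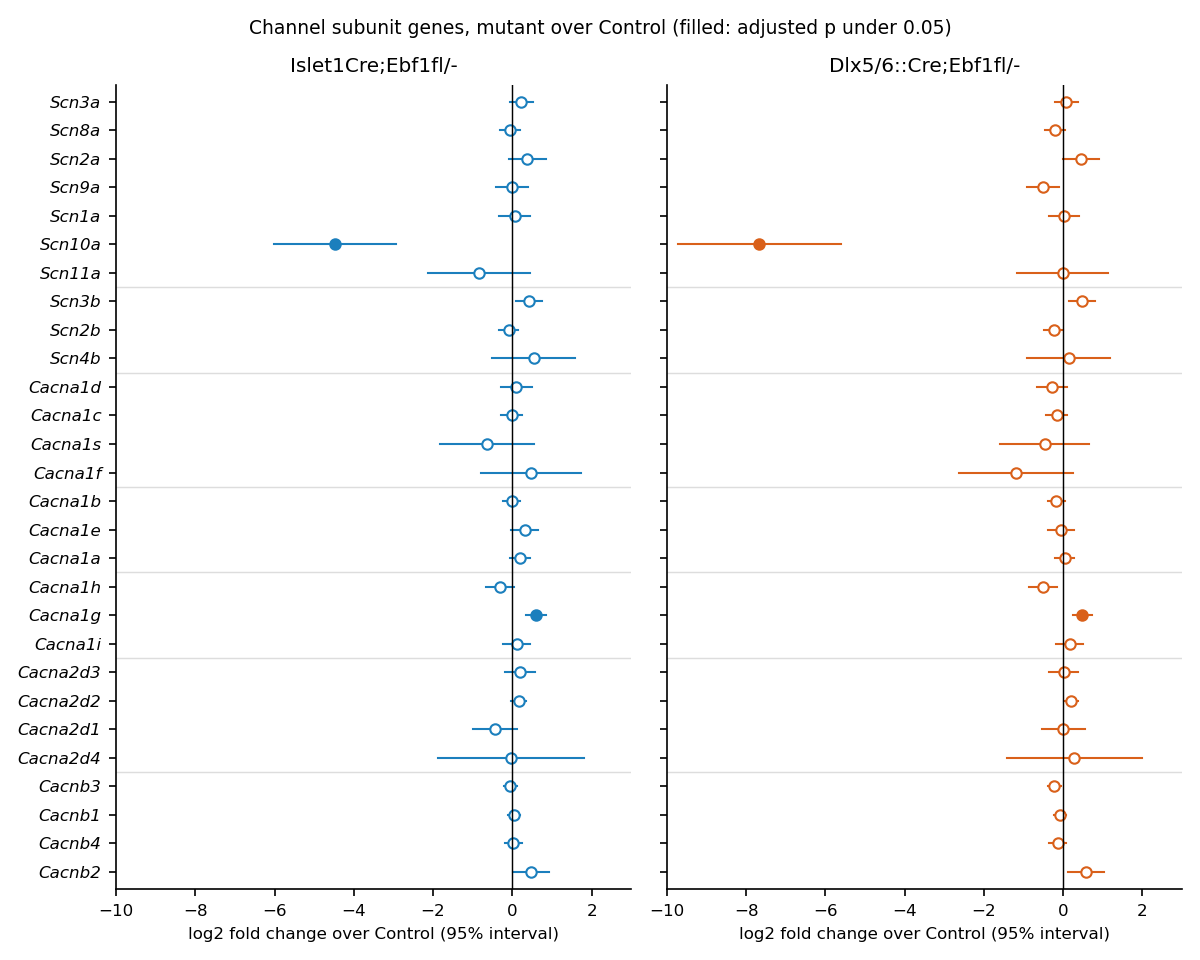
Log2 fold change over Control (x axis) of 28 tested subunit genes (rows, grouped by role), with 95% intervals, for Islet1Cre-labelled (left) and Dlx5/6-labelled embryos (right). Filled points passed the test after adjustment over all genes: in both panels these are Scn10a, far to the left at -4.48 and -7.66, and Cacna1g, to the right at 0.60 and 0.49.

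The levels of the subunits differed widely between genes. Per kb of exon, which allows genes to be compared, Cacnb3 was highest in Control at 109 ± 6.50 CPM per kb (SD, n = 3) and stood at percentile 98.0 of protein-coding genes with a count. It encodes a beta subunit of neuronal calcium channels. Next came Cacna1h (34.9 ± 8.37), Cacnb1 (27.9 ± 1.59), Scn3b (26.5 ± 2.38) and Cacna2d3 (26.0 ± 3.96), of which the last 3 overlap in Control, so their order is not resolved by 3 embryos, while the lowest Cacna1h value (29.34) lies just above the highest Cacnb1 value (29.27). The order also depends on the length used: per kb of the longest transcript Cacna2d3, at 61.3, stood above Cacna1h, at 41.4. The pore-forming sodium channel genes were lower, led by Scn3a at 6.64 ± 0.24 and Scn8a at 5.42 ± 0.73 CPM per kb. Scn3a encodes the sodium channel typical of embryonic and newborn neurons, and Scn8a a main channel of the adult axon initial segment. Genes best known from skeletal muscle, retina and peripheral nerve sat at the bottom: Cacna1s, Scn11a, Cacna2d4, Cacna1f, Scn4a and Scn7a were all at or under 0.067 CPM per kb in Control. Scn4a and Scn7a never exceeded 4 counts and 1 count in a library and were not tested. A count of 0 allows up to 3 counts, or 0.0704 to 0.178 CPM depending on the library, and these limits cover counting error only.

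**Figure D2:**
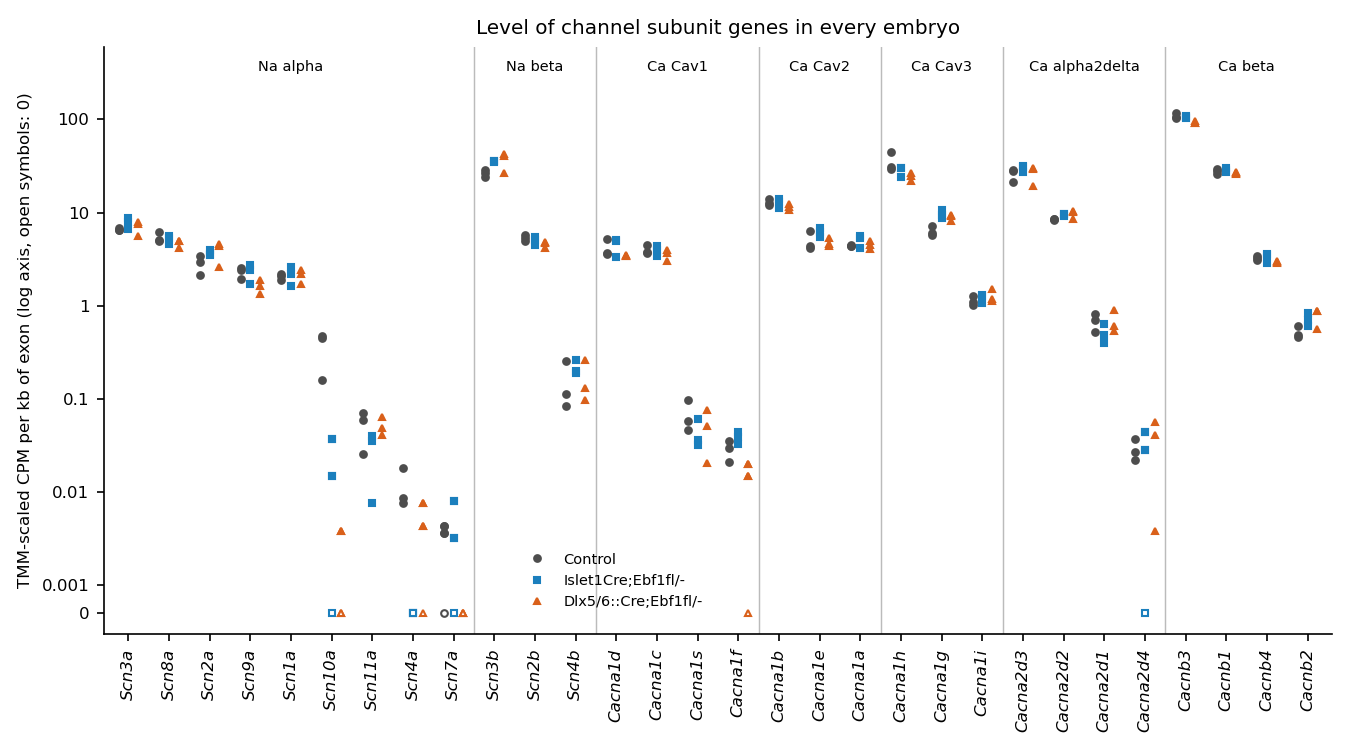
TMM-scaled CPM per kb of exon (log axis) of 30 subunit genes in each of the 9 embryos, with 1 symbol per embryo and open symbols for a count of 0. Most genes lie in 1 band for the 3 labelled groups, while Scn10a falls from 0.16 to 0.47 in Control to at most 0.037 in Islet1Cre-labelled and 0.0038 in Dlx5/6-labelled embryos.

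Scn10a encodes the pore-forming subunit of Nav1.8, a tetrodotoxin-resistant sodium channel best known from nociceptive sensory neurons. It was the member that differed most between the genotypes. The 3 Control libraries held 124, 133 and 40 counts of it, the 3 Islet1Cre-labelled libraries 0, 5 and 5, and the 3 Dlx5/6-labelled libraries 0, 1 and 0. In CPM these were 3.73, 3.60 and 1.28 in Control, 0, 0.117 and 0.298 in Islet1Cre-labelled and 0, 0.0302 and 0 in Dlx5/6-labelled embryos. No mutant library reached the lowest Control library, Control replicate 3. The fitted log2 fold change was -4.48 (SE 0.70, adjusted p = 0.0177) in the Islet1Cre comparison. In the Dlx5/6 comparison the adjusted p was 0.00261, and the fitted change of -7.66 rests on a single read in the mutants and on the prior count of the fit. From the summed counts, 297 in Control against 10 in the Islet1Cre-labelled embryos, the level in Control was 23.9 times as high, with a 95% interval of 12.8 to 50.3. Against the 1 count of the Dlx5/6-labelled embryos it was 287 times as high, with an interval of 51.1 to 11363. Both intervals cover counting error only.

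Even in Control Scn10a was a minor transcript, at 0.360 ± 0.17 CPM per kb and rank 25 of the 32 genes. It made up 1.75% ± 0.83 of the summed sodium channel alpha level per kb in Control, 0.0767% ± 0.0857 in Islet1Cre-labelled and 0.00599% ± 0.0104 in Dlx5/6-labelled embryos (SD, n = 3 each). The embryos carry codes that start with IE or D: all Islet1Cre-labelled embryos and Control replicates 1 and 2 are IE, and all Dlx5/6-labelled embryos and Control replicate 3 are D. Within the IE code the mean was 0.138 CPM in mutants and 3.66 CPM in the 2 controls, and within the D code 0.0101 CPM in mutants and 1.28 CPM in the single control. With the code as a covariate the gene still passed the test in both comparisons. Without the 2 libraries that hold both Xist and Y-linked counts it also passed in both. The Islet1Cre call was lost on leaving out Control replicate 1, Control replicate 2, Islet1Cre;Ebf1fl/- replicate 1 or Islet1Cre;Ebf1fl/- replicate 2, with adjusted p-values of edgeR's test of 0.0873, 0.0598, 0.0884 and 0.145, while the Dlx5/6 call was kept whichever library was left out.

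Sensory ganglion neurons are the best known source of this transcript, and 5 of their markers were listed for that reason. Of these, Prdm12 had at most 5 counts and Isl2 at most 1 count in any library. The 5 markers summed to 9.004 to 13.01 CPM in Control, 7.44 to 10.4 in Islet1Cre-labelled and 8.26 to 10.1 in Dlx5/6-labelled embryos. Of the 5, 3 had enough counts for a test, and 0 of these passed in either comparison. Of the 6 markers of direct-pathway projection neurons, 0 passed in the Islet1Cre and 1 in the Dlx5/6 comparison, and their sum was 468 to 659 CPM in Control, 519 to 587 in Islet1Cre-labelled and 363 to 459 in Dlx5/6-labelled embryos. This sum joins markers whose values did not all go the same way, although 0 passed in the Islet1Cre comparison. Chrm4 and Drd1 are given as 2 examples from the 6. In counts not scaled for library size, Chrm4 had 525, 699 and 521 in Control and 196, 322 and 203 in Islet1Cre-labelled libraries. For Drd1 these were 920, 1986 and 1902 in Control and 1794, 3199 and 1177 in Islet1Cre-labelled libraries. The part of either list in the Scn10a difference was not tested.

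Scn10a lies on chromosome 9 of GRCm38 (chr9:119608456-119719322, minus strand), with the sodium channel gene Scn11a 34.4 kb to its right. Of 17 other tested genes that start within 500 kb of its start, 0 were called in either comparison. Scn11a, which encodes Nav1.9 of sensory neurons, was near the limit of detection, with log2 fold changes of -0.85 and -0.0066 and adjusted p-values of 0.901 and 0.996.

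**Figure D3:**
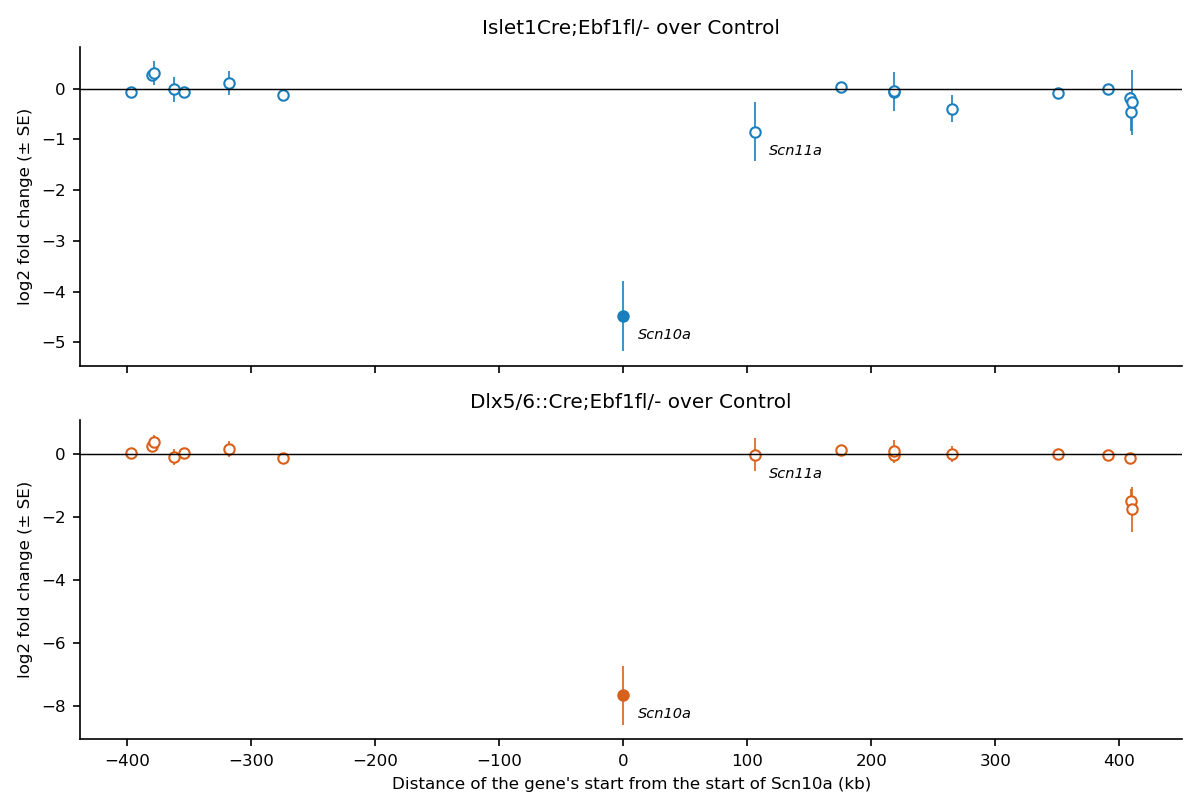
Log2 fold change ± SE of Scn10a and 17 other tested genes within 500 kb (y axis) against the distance of each gene's start from that of Scn10a in kb (x axis), for Islet1Cre-labelled (top) and Dlx5/6-labelled embryos (bottom). Only Scn10a is filled, that is, called. Scn11a, 106 kb to the right, lies at -0.85 and -0.0066, and 2 snoRNA genes near 410 kb lie at -1.50 and -1.75 in the Dlx5/6 panel with adjusted p-values of 0.0917 and 0.277.

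The promoters of Scn10a and of its neighbour Scn11a are shown because Ebf1 is a transcription factor and only the first of them was called. They are taken from RefSeq (GRCm38.p6) and run from 250 bases before to 50 bases after the annotated start, at chr9:119718983-119719282 and chr9:119825407-119825706, both minus strand and written 5′ to 3′. Capitals were kept for matches to the core of the EBF motif, CCCNNGGG, or to TATAAA, and there are none.
Scn10a: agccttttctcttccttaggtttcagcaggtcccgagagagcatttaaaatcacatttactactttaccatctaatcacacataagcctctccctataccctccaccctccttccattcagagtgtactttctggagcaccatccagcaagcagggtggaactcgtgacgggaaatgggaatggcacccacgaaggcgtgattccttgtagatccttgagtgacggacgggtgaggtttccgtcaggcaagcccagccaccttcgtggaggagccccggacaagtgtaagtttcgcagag
Scn11a: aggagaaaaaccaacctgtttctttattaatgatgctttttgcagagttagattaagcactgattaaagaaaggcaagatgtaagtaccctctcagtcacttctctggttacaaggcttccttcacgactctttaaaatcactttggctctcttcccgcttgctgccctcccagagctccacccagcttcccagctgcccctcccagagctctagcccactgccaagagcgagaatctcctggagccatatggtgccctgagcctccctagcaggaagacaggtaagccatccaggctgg
The core of the EBF motif reads the same on both strands, so the search covers both. It was found in 5 of the 34 promoters of the 24 members that have one in the table (in Cacna1b, Cacna1c, Cacna1i, Cacna2d3 and Cacnb4) and in 13.7% of all 32851 promoters. TATAAA, searched on both strands, was found in 2 of the 34 (in Cacna1d and Scn2a) and in 13.6% of all. The Scn10a promoter had 51.7% G and C and 11 CpG, beside medians of 52.7% and 7 over all promoters. Such a match, or its absence in this short window, only describes the letters.

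Among the other sodium channel alpha genes, Scn3a remained the highest per kb. It had 80.2, 86.0 and 82.0 CPM in Control, 83.3, 108 and 99.4 in Islet1Cre-labelled and 70.5, 94.0 and 98.1 in Dlx5/6-labelled embryos, and the groups overlapped (log2 fold changes 0.23 and 0.08, adjusted p = 0.796 and 0.806). Scn9a encodes Nav1.7, a channel of peripheral and some central neurons. It had 32.5, 25.01 and 31.0 CPM in Control, 22.1, 34.8 and 30.9 in Islet1Cre-labelled and 16.9, 24.1 and 20.9 in Dlx5/6-labelled embryos. The Dlx5/6-labelled values all lay under the Control values while the Islet1Cre-labelled values spanned them, and the log2 fold change was -0.01 (SE 0.18, adjusted p = 0.999) in the Islet1Cre and -0.51 (SE 0.18, adjusted p = 0.199) in the Dlx5/6 comparison. Of the 8 tested alpha genes, 1 was called lower and 0 higher in each comparison. Scn2a, which encodes a sodium channel of developing axons, was above Control in all 3 Islet1Cre-labelled embryos and overlapped Control in the Dlx5/6-labelled ones.

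The sodium channel beta genes were dominated by Scn3b, whose product is a beta subunit prominent in the embryonic brain. It had 131, 156 and 147 CPM in Control, 196, 196 and 190 in Islet1Cre-labelled and 145, 232 and 222 in Dlx5/6-labelled embryos. The Islet1Cre-labelled embryos were all above Control, as were 2 of the 3 Dlx5/6-labelled embryos, and the low one was replicate 1, the library that stood apart. The log2 fold changes were 0.42 (SE 0.15, adjusted p = 0.376) and 0.47 (SE 0.15, adjusted p = 0.157), so the gene did not pass in the main fit of all libraries. Without Dlx5/6::Cre;Ebf1fl/- replicate 1 they were 0.42 and 0.65, with adjusted p-values of 0.0161 and 0.00207 (edgeR). In each comparison this was the only 1 of the 9 fits leaving out a library in which Scn3b passed. Over these fits its adjusted p-values of edgeR's test reached 0.816 in the Islet1Cre and 0.450 in the Dlx5/6 comparison. As a share of the summed beta level per kb, Scn3b was 65.4% ± 1.20 in Control, 72.9% ± 1.54 in Islet1Cre-labelled and 76.3% ± 0.88 in Dlx5/6-labelled embryos (SD, n = 3). In the share of Scn3b replicate 1 of the Dlx5/6-labelled embryos, at 75.3%, was close to the 76.7% and 76.9% of the other 2. In CPM, at 145, the same replicate lay within Control. The shares of the 4 genes are parts of 1 sum, so a higher share of Scn3b need not mean a higher level of it. None of the 4 beta genes was called in either comparison in the main fit, at unadjusted p under 0.05 only Scn3b stood in each, and DESeq2 called 0 of them too. Other edgeR settings did call Scn3b. With only the 6 libraries compared it passed in the Islet1Cre comparison (adjusted p = 0.0313). With no filter on low counts it passed in the Dlx5/6 comparison (adjusted p = 0.0456).

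Cacna1g, which encodes the T-type calcium channel Cav3.1, was the member that rose. It had 73.8, 58.2 and 61.9 CPM in Control, 88.5, 109 and 95.6 in Islet1Cre-labelled and 82.6, 93.1 and 96.1 in Dlx5/6-labelled embryos. All 6 mutant embryos were above all 3 Control embryos, with the gap narrowest between Control replicate 1 and Dlx5/6::Cre;Ebf1fl/- replicate 1. The log2 fold change was 0.60 (SE 0.11, 95% interval 0.36 to 0.84, adjusted p = 0.0352) in the Islet1Cre and 0.49 (SE 0.11, 0.25 to 0.73, adjusted p = 0.0448) in the Dlx5/6 comparison. The size was stable but the call was not. With the embryo code as a covariate the changes were 0.57 and 0.55, with adjusted p-values of 0.146 and 0.354 (edgeR). Without the 2 libraries that hold Xist and Y-linked counts they were 0.59 and 0.46 (adjusted p = 0.309 and 0.284). The Islet1Cre call was lost in 6 of the 9 fits that leave out 1 library, all but those without Control replicate 1 or without replicate 1 or 2 of the Dlx5/6-labelled embryos, with log2 fold changes of 0.51 to 0.70. The Dlx5/6 call was lost in 6 of 9 as well, all but those without Control replicate 1, Dlx5/6::Cre;Ebf1fl/- replicate 1 or Islet1Cre;Ebf1fl/- replicate 2, with changes of 0.42 to 0.59.

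No other T-type gene was called. Cacna1h, which encodes Cav3.2, was per kb the highest pore-forming gene of all 32. It had 435, 286 and 301 CPM in Control, 237, 297 and 295 in Islet1Cre-labelled and 263, 213 and 240 in Dlx5/6-labelled embryos. The Dlx5/6-labelled embryos lay under all Control embryos, of which Control replicate 1 was far above the other 2, and the Islet1Cre-labelled embryos overlapped Control. The log2 fold changes were -0.30 (SE 0.16, adjusted p = 0.741) and -0.51 (SE 0.16, adjusted p = 0.140), and DESeq2 called the second (adjusted p = 0.0333). Without Control replicate 1 the changes were -0.09 and -0.30 (adjusted p = 1.0 and 0.408, edgeR). Cacna1i, which encodes Cav3.3, was low, at 1.13 ± 0.12 CPM per kb in Control, and was not called, with log2 fold changes of 0.11 and 0.17. Of the summed alpha1 level per kb, Cacna1h was 47.5% ± 3.06 in Control, 39.5% ± 0.81 in Islet1Cre-labelled and 39.0% ± 2.56 in Dlx5/6-labelled embryos, while Cacna1g was 8.77% ± 0.39, 13.5% ± 0.78 and 14.3% ± 1.54. For both genes the shares of the mutant embryos did not overlap those of Control, and they depend on each other because they are parts of 1 sum.

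**Figure D4:**
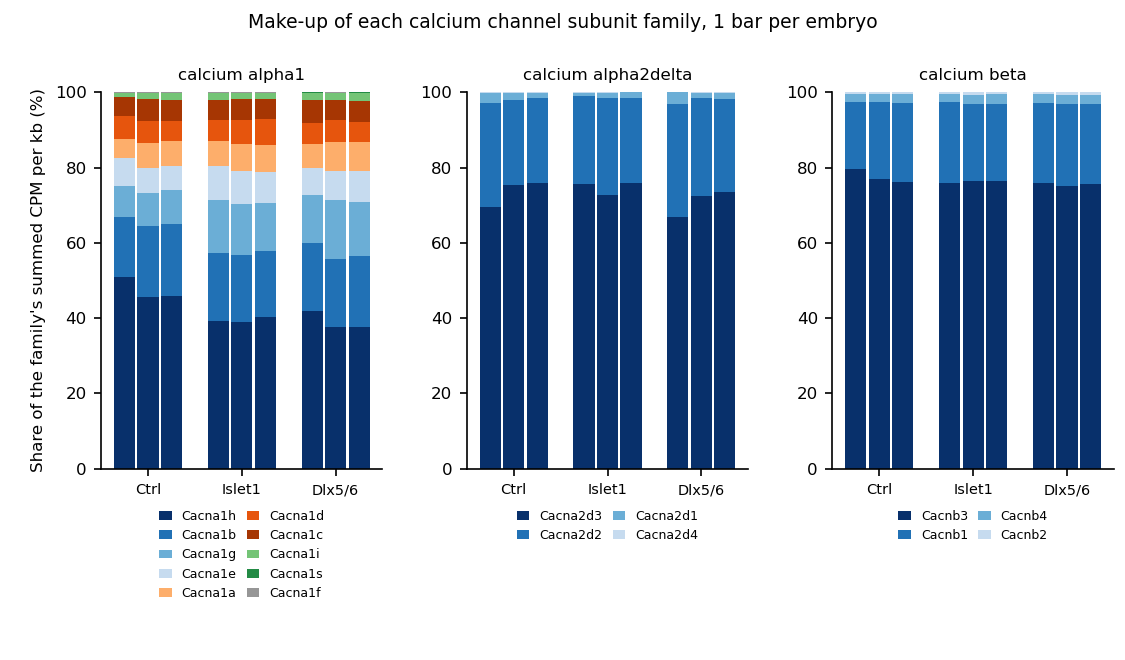
Share of each gene in the summed CPM per kb of its family (y axis, percent), with 1 bar per embryo in the order of replicates, for calcium channel alpha1, alpha2delta and beta genes. The dark blue Cacna1h share shrinks from 47.5% in Control to 39.5% and 39.0% in the mutants, the Cacna1g share grows from 8.77% to 13.5% and 14.3%, and the alpha2delta and calcium beta families keep similar shares.

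The Cav1 and Cav2 genes showed no call in either comparison. Cacna1d, which encodes the L-type channel Cav1.3 of striatal projection neurons, was the highest Cav1 gene per kb of exon, with control values that overlapped those of Cacna1c (4.16 ± 0.92 and 3.98 ± 0.43), and per kb of the longest transcript Cacna1c was higher (6.403 against 5.44). Cacna1d had 66.0, 46.1 and 45.6 CPM in Control, 42.1, 62.9 and 64.6 in Islet1Cre-labelled and 44.4, 42.9 and 43.1 in Dlx5/6-labelled embryos. The Dlx5/6-labelled values lay just under the lowest Control value, with log2 fold changes of 0.11 (adjusted p = 0.999) and -0.27 (adjusted p = 0.479). Cacna1b, which encodes the N-type channel Cav2.2 of nerve terminals, was the highest Cav2 gene. It had 138, 121 and 127 CPM in Control, 113, 138 and 130 in Islet1Cre-labelled and 115, 106 and 122 in Dlx5/6-labelled embryos, which overlapped (log2 fold changes -0.02 and -0.17, adjusted p = 0.999 and 0.408). The 3 Cav2 genes had 95% intervals that stayed within -0.22 to 0.64 in the Islet1Cre and -0.38 to 0.28 in the Dlx5/6 comparison, which are the bounds these 3 against 3 embryos set. At an unadjusted p under 0.05 none of these 7 genes stood in either comparison, and DESeq2 called 0 of them.

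Of the alpha2delta genes, Cacna2d3 was the highest. It had 187, 248 and 245 CPM in Control, 276, 236 and 266 in Islet1Cre-labelled and 166, 255 and 263 in Dlx5/6-labelled embryos, with the lowest value again in Dlx5/6::Cre;Ebf1fl/- replicate 1. The groups overlapped, and the log2 fold changes were 0.20 (SE 0.17, adjusted p = 0.971) and 0.01 (SE 0.17, adjusted p = 0.985). Cacna2d2 lay above Control in all 6 mutant embryos and did not pass the test. The gap was very narrow, with 68.3 CPM in Dlx5/6::Cre;Ebf1fl/- replicate 1 against 68.1 CPM in Control replicate 1.

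The calcium channel beta genes included the highest member of all, Cacnb3. It had 468, 425 and 421 CPM in Control, 424, 433 and 413 in Islet1Cre-labelled and 372, 367 and 386 in Dlx5/6-labelled embryos. The Dlx5/6-labelled embryos lay below both other groups, but by little: the log2 fold change was -0.22 (SE 0.07, adjusted p = 0.161), against -0.05 (SE 0.07, adjusted p = 0.999) in the Islet1Cre comparison. Cacnb2, which encodes the main beta subunit of the heart and a minor one of the brain, went the other way. It had 6.38, 8.004 and 6.16 CPM in Control, 8.12, 11.1 and 9.34 in Islet1Cre-labelled and 7.54, 11.5 and 11.6 in Dlx5/6-labelled embryos. The Islet1Cre-labelled embryos were all above Control, and among the Dlx5/6-labelled ones only replicate 1 fell within it. The log2 fold changes were 0.48 (SE 0.20, adjusted p = 0.567) and 0.58 (SE 0.20, adjusted p = 0.199), and without Dlx5/6::Cre;Ebf1fl/- replicate 1 the second was 0.75 (adjusted p = 0.0303, edgeR). That was the only 1 of the 9 fits leaving out a library in which Cacnb2 passed in the Dlx5/6 comparison. Its adjusted p-values there reached 0.475 (edgeR).

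**Figure D5:**
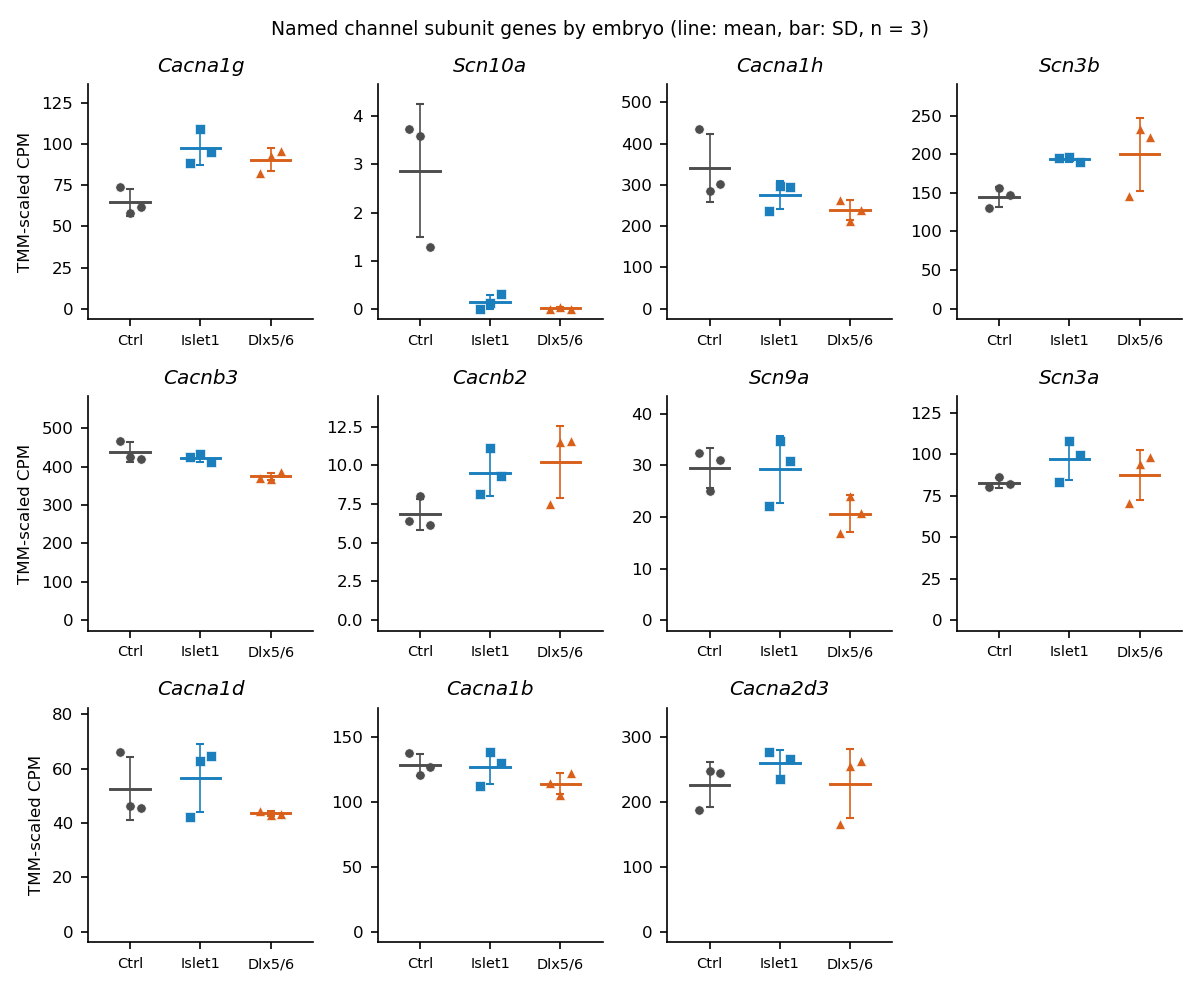
TMM-scaled CPM (y axis, from 0) of 11 named subunit genes in each embryo of Control (Ctrl), Islet1Cre-labelled (Islet1) and Dlx5/6-labelled (Dlx5/6) groups, with 1 symbol per embryo in the order of replicates, a line at the mean and a bar of ± 1 SD (n = 3). Both mutant groups lie apart from Control for Scn10a (lower) and Cacna1g (higher), and the first Dlx5/6 symbol is the low one for Scn3b, Cacnb2, Scn3a and Cacna2d3.

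Counted without a test, the 3 embryos of a mutant group lay wholly above Control in 5 and wholly below it in 2 of the 30 tested members in the Islet1Cre comparison, where 15.2% of all genes did one or the other (7.77% above and 7.45% below). In the Dlx5/6 comparison they lay above in 2 and below in 9, where 21.0% of all genes did one or the other (9.71% above and 11.2% below). Those below included Scn10a, Scn9a, Cacna1d, Cacna1h and Cacnb3. Beside this comparison stand the markers of excitatory cortical neurons, of which 0 of 8 passed the test and whose sum was 37.7 to 92.8 CPM in Control, 41.8 to 69.5 in Islet1Cre-labelled and 89.97 to 218 in Dlx5/6-labelled embryos, highest in replicate 1. Of the 7 markers of striatal interneurons, 6 were tested and 0 passed, and Pvalb was at or near 0. Their sum was 327 to 371 CPM in Control, 306 to 366 in Islet1Cre-labelled and 188 to 318 in Dlx5/6-labelled embryos, so the Dlx5/6-labelled embryos lay below Control, lowest in replicate 1. The part of either list in the lower values was not tested. Leaving out Dlx5/6::Cre;Ebf1fl/- replicate 1 took the called members of the Dlx5/6 comparison from 2 to 5, namely Scn10a (lower) and Cacna1g, Scn3b, Cacnb2 and Scn2a (higher), of which Scn2a is named here after its values were seen. Calls over all genes moved too. In the Dlx5/6 comparison they were 143 to 613 over the 9 fits leaving out a library, in place of 392. With this same library left out, the Islet1Cre comparison called 397 genes in place of 159.

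Set directly against each other, the Dlx5/6-labelled and the Islet1Cre-labelled embryos differed in 0 of the 30 members by edgeR's test, where 0% of all genes were called. Their values did not overlap in 1 member above (Scn11a) and 4 below (Cacna1e, Cacna1f, Cacnb1 and Cacnb3), where 5.14% of all genes lay above and 5.24% below. At an unadjusted p under 0.05 there were 5 members, all lower in the Dlx5/6-labelled embryos, and 844 genes or 5.16% of all, and DESeq2 called 0 members among 18 genes. The 5 were Scn10a, Scn9a, Cacna1e, Cacna1f and Cacnb3. The interval of the difference for Cacna1g, -0.35 to 0.13 on the log2 scale, bounds how far the mutants could differ in that gene. A missed threshold does not show that the groups are alike.

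The genes whose products bind, anchor or modulate these channels were read from a list of 37, among them the fibroblast growth factor homologous factors, ankyrins, gamma subunits, RGK proteins, Rim proteins and calmodulins. Cacng6, Cacng7 and Cacng8 were at 0 in all 9 libraries, and 34 were tested. In the Islet1Cre comparison 0 were called by edgeR, 3 had an unadjusted p under 0.05 and DESeq2 called 1, Rem2. In the Dlx5/6 comparison 1 was called lower, again Rem2, 0 were called higher and 6 had an unadjusted p under 0.05. Over all genes, edgeR called 0.971% in the Islet1Cre and 2.39% in the Dlx5/6 comparison. An unadjusted p under 0.05 was held by 7.93% and 15.5% of all genes. The counts of the list were not tested against these shares. Rem2 encodes a small GTP-binding protein that binds calcium channel beta subunits and inhibits high-voltage activated channels. It had 52.0, 56.5 and 57.5 CPM in Control, 43.0, 31.1 and 41.4 in Islet1Cre-labelled and 35.0, 41.6 and 38.1 in Dlx5/6-labelled embryos. All 6 mutant embryos lay below Control, with a log2 fold change of -0.53 in both comparisons (SE 0.12, adjusted p = 0.0913, and SE 0.12, adjusted p = 0.0472). The median log2 fold change of the 34 genes was 0.053 in the Islet1Cre and -0.032 in the Dlx5/6 comparison, and the largest changes that did not pass in the Dlx5/6 comparison reached -0.83 and 0.76.

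The members share chromosomal neighbourhoods as well as sequence. Scn3a, Scn2a, Scn1a, Scn9a and Scn7a form a row on chromosome 2 and Scn10a and Scn11a lie side by side on chromosome 9, yet the 4 tested genes of the first row gave no call in either comparison by edgeR (at an unadjusted p under 0.05 there was Scn9a in the Dlx5/6 comparison) or by DESeq2. Reads that match several places were removed by the authors, which touches genes with near-identical stretches: 3.85% of the 75-base windows of Scn3a, 2.80% of Scn2a, 2.78% of Scn9a and 1.88% of Scn1a occur in another gene, against 0.488% of Scn10a and 0% of Cacna1g. Windows were searched on both strands. Those of Scn9a can therefore include its overlap with an antisense gene (1.41% of its exon bases), which is a single place in the genome. Antisense genes overlap 19.98% of the exon bases of Cacna1s and 16.0% of Cacnb4, so their counts are uncertain where strand was not used.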

How the data were processed

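Striatal RNA of 9 E17.5 samples, each labelled as a single embryo, was sequenced by the authors from TruSeq stranded poly(A) libraries (75-base reads). Per the labels and the study's methods, reads were aligned to mm10 with STAR 2.4.0k, reads with several matches were removed, and reads per gene were counted with HTSeq 0.5.3. The authors deposited whole-number counts per Ensembl gene, and the strand setting is not given in the sources used here. Of 44886 gene identifiers, 44048 were found in GENCODE M21 (GRCm38), which gave symbols and exon lengths. Groups follow the genotype labels.

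Counts were tested with edgeR 4.0.16 (R 4.3.3) in 1 fit of all 9 libraries, with genes kept by filterByExpr at a count minimum of 10, TMM scaling and Benjamini-Hochberg adjustment over the 16368 genes kept. Of the 32 members, 30 were kept. Levels per kb divide CPM by the length of all annotated exons. DESeq2 1.42.0 and other settings were alternatives. The scripts were tested on simulated data. Depth was 16548083 to 41507049 counts a library, and libraries of 1 group differed by more than sampling noise. Replicate numbers did not pair embryos.

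The members, the gene lists and the markers were chosen with earlier results of these data known. Named with values were members with an adjusted p under 0.05 in either comparison with Control, the 6 others with the smallest unadjusted p there, the highest member per kb in Control of each of the 7 groups by role, and listed partner genes that were called. The values of 2 members are not reported here. The alternative without the 2 libraries with Xist and Y-linked counts was chosen after seeing the data.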

Additional observations from a re-analysis of the deposited data

How the results depend on the processing

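Of the 30 subunit genes tested, 2 were called in each comparison with Control. In the Islet1Cre comparison the count was 3 with DESeq2 and 3 with only the 6 libraries compared. It was 1 with the embryo code as a covariate, with a replicate block, with a stricter filter (which removed Scn10a) and without the 2 libraries with Xist and Y-linked counts, and 0 to 3 on leaving out a library. In the Dlx5/6 comparison it was 4 with DESeq2, 5 with no filter on low counts, 1 with the embryo code, with only the 6 libraries compared, with the stricter filter, with upper-quartile scaling and without the 2 libraries, and 1 to 5 on leaving out a library. Of the listed partner genes the Islet1Cre comparison called 1 with DESeq2 and with no filter, and 0 to 2 on leaving out a library, in place of 0. The Dlx5/6 comparison called 2 with DESeq2 and with no filter, 0 with the embryo code, the replicate block, upper-quartile scaling and without the 2 libraries, and 0 to 1 on leaving out a library, in place of 1. The replicate block did not rest on a shared litter, and same-numbered libraries correlated at a mean of -0.0235 in their deviations from the group means (from -0.228 to 0.178). With it the Islet1Cre comparison kept Scn10a and the Dlx5/6 comparison had 2 calls, Scn10a among them, without Cacna1g (adjusted p = 0.0886, edgeR). In the comparison of the mutants with each other, 0 members and 0 partner genes were called under every alternative run.

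Over all genes, 159 calls in the Islet1Cre comparison became 394 with DESeq2, 311 with no filter, 259 with 6 libraries, 61 with the embryo code and 52 without the 2 libraries, and 15 to 397 on leaving out a library. The 392 calls of the Dlx5/6 comparison became 857, 708, 181, 32 and 138, and 143 to 613. The 0 calls between the mutants became 18, 13, 2, 1 and 3, and 0 to 4.

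Some small uncalled changes turned sign. In the Islet1Cre comparison Scn9a was at 0.029 with the embryo code, 0.000143 with 6 libraries, and between -0.16 and 0.16 on leaving out a library, Cacnb3 between -0.0691 and 0.0027, Cacna1b between -0.0825 and 0.0645, and Cacna1d was at -0.0807 without the 2 libraries (log2 scale). In the Dlx5/6 comparison Cacna2d3 was at -0.10 with the embryo code and between -0.11 and 0.19 on leaving out a library, and Scn3a between -0.0155 and 0.22. When the longest transcript replaced the exon union, 15 of the 32 levels per kb changed rank: Cacnb3 was still highest, Cacna2d3 passed Cacna1h and Cacna1c passed Cacna1d. The cause of these shifts was not tested.

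The 2 mutant genotypes carry different embryo codes and the D code has 1 control, so code and genotype are only partly separable. Members near or under 0.178 CPM were at the limit of detection in the smallest library.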
